A study of Solanum lycopersicum with 12 samples.

Results

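Tomato seedlings treated with MBI600 CFCF were compared directly with seedlings treated with flg22, both collected 24 h after treatment. MBI600 CFCF is the cell-free filtrate of a culture of Bacillus amyloliquefaciens MBI600, and flg22, the positive control, is a short stretch of bacterial flagellin. The comparison rests on 4 of the 12 arrays of the series, 2 arrays per treatment, chosen by their labels. Every group was made of whole Solanum lycopersicum seedlings, 15 days old, in liquid MS medium, and each array read RNA of a pool of 2 seedlings. The CFCF seedlings received filtrate at 1 part in 5 of the volume and no flg22, and the flg22 seedlings received the peptide at 1 µM and no filtrate. The control seedlings of 24 h, shown beside them for scale, are given as water in the labels and as LB with MS medium in the methods. Filtrate carries spent culture medium and none is described for flg22, so medium and elicitor cannot be told apart in this comparison. The sources used here name no cultivar. The 2 replicates of a group came from independent experiments with different plants, according to the design text.

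Plants recognise flg22 through a receptor kinase at the cell surface, which starts pattern-triggered immunity, with ethylene production, an oxidative burst and the transcription of defence genes. Wounding and chewing insects act on tomato through jasmonate, which induces proteinase inhibitors and enzymes such as threonine deaminase and leucine aminopeptidase that hamper digestion in the insect gut. Pathogenesis-related (PR) proteins, among them chitinases and glucanases, accumulate under salicylate, ethylene or jasmonate, depending on the member. Bacillus strains living on roots are known to leave plants better protected against later attack.

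Values are log2 normalized intensities of the green channel, which held the seedling RNA, and a difference is MBI600 CFCF minus flg22. The sources used here do not say what the red channel held. Between 69.8% and 72.9% of the 43803 spots were well above background on 3 of the 4 arrays, and 81.7% on flg22 replicate 2, with 0 saturated spots. The CFCF replicates correlated at r = 0.993 across probes and the flg22 replicates at r = 0.97, probes not being independent replicates. The spread per array was 0.176 (log2) for CFCF and 0.367 for flg22, so flg22 contributed more of the replicate error. CFCF replicate 1 and flg22 replicate 1 shared a slide (slide 1), whereas CFCF replicate 2 lay on slide 3 and flg22 replicate 2 on slide 2. Leaf markers were present on every array. The 26 photosynthesis genes summed to 20.49 and 20.24 (log2) on the CFCF arrays, against 20.18 and 20.49 on the flg22 arrays, and their median difference was 0.08. The 6 root markers that were matched (ext1, PT1, PT2, AMT1-1, AMT1-2 and AMT1-3) summed to 13.08 and 13.26 with CFCF, against 13.50 and 13.36 with flg22. Of these markers 4 were lower and 2 higher with CFCF, between -0.49 and 0.99 (ext1), with a median difference of -0.15. The part of these small shifts in the results below was not tested. In pooled seedlings, fewer cells of a type and less RNA per cell cannot be told apart.

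Few probes separated the treatments beyond the replicate error, and of the probes past a log2 difference of 2 more were lower than higher with CFCF. Of 43603 probes, 3 (0.00688%) were called by limma at an adjusted p under 0.1 and a log2 difference of at least 2 in size, 2 higher (0.00459%) and 1 lower (0.00229%) with CFCF. At the adjusted p alone 4 passed (0.00917%). Past the difference of 2 alone, which is a ratio of 4, 6 probes (0.0138%) were higher with CFCF and 41 (0.094%) were lower. With the scanner's processed signal these were 129 higher and 164 lower, and with an array left out 6 to 18 higher and 29 to 100 lower. At an unadjusted p under 0.05 there were 1503 probes (3.45%), 655 higher (1.5%) and 848 lower (1.94%). Both CFCF arrays lay apart from both flg22 arrays for 31.5% of all probes, 15.2% higher and 16.3% lower. The gene lists below use 1 probe per named gene. Over all 2232 named genes the shares without overlap were 11.9% higher and 18.3% lower. At an unadjusted p under 0.05 in limma they were 1.12% higher and 4.03% lower. The shares of the lists are read against those of the named genes. The median difference over all probes was 0.0052. The spread of the test came from all 12 arrays. With the 4 arrays alone, or with the 8 treated arrays, 0 probes were called by limma, and the sizes of the differences were the same. The count was also 0 without CFCF replicate 1 or with the slide as a term, 6 without CFCF replicate 2 and 1 without flg22 replicate 2.

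**Figure D1:**
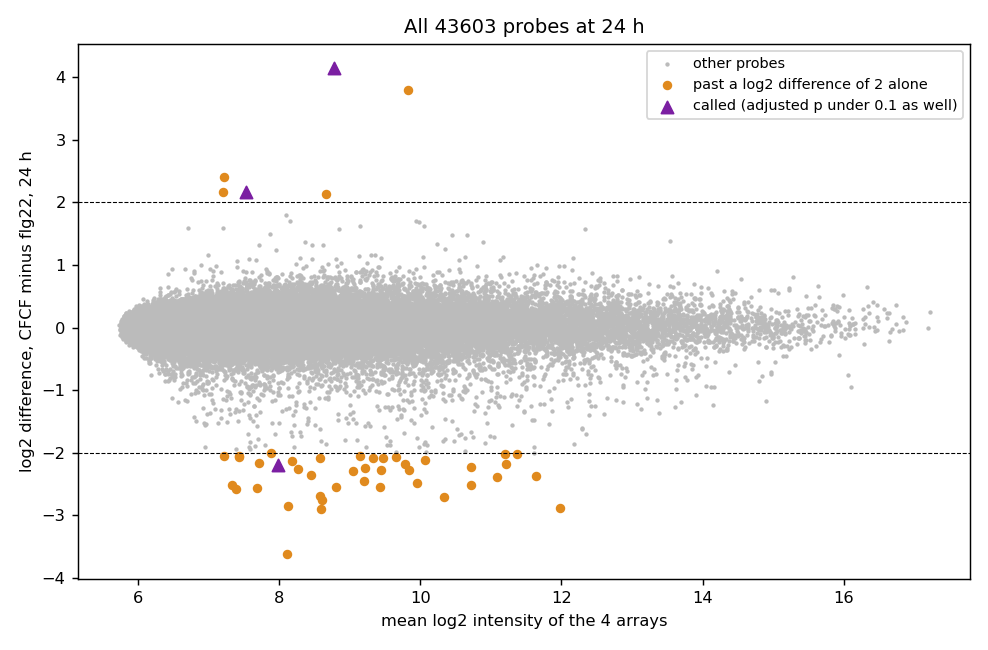
Log2 difference between MBI600 CFCF and flg22 at 24 h (vertical axis) against the mean log2 intensity of the 4 arrays (horizontal axis), with 1 point per probe and dashed lines at a difference of 2 in either direction. The 41 probes below the lower line outnumber the 6 above the upper line, and 3 probes (triangles) also passed the adjusted p.

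The called probes carry no gene name in the tables used here and are given by their identifiers. Probe A_96_P083829 read 11.26 and 10.44 on the CFCF arrays, against 6.30 and 7.12 on the flg22 arrays and 7.07 and 6.98 on the control arrays. Both CFCF arrays stood far above all others, while flg22 and control overlapped. The log2 difference was 4.14 (SE 0.30, limma adjusted p = 0.0324), a ratio of 17.7. Probe A_96_P128967 read 8.90 and 8.33 with CFCF, against 6.20 and 6.70 with flg22 and 6.21 and 5.93 in the control. Its signal was well above background on both CFCF arrays and on 1 of the 2 flg22 arrays, and the difference was 2.16 (SE 0.22, limma adjusted p = 0.0960). Probe A_96_P119457 ran the other way, with 6.57 and 7.23 with CFCF, against 9.16 and 9.01 with flg22 and 7.23 and 7.32 in the control. Here flg22 stood above both other groups, and the difference was -2.19 (SE 0.20, limma adjusted p = 0.0558). Probe A_96_P112032 passed the adjusted p (0.0558, limma) at a smaller difference of -1.76, with 8.53 and 8.73 with CFCF, against 10.22 and 10.56 with flg22. The call of A_96_P083829 was lost in 5 of 17 alternatives and those of A_96_P128967 and A_96_P119457 in 11 of 17 each. For the latter 2 probes these included the replicate number as a block (limma adjusted p = 0.207 and 0.148). Slide 1 alone, among the 17, gave no p and so no call. The 4 arrays with a replicate block or a crossed pairing, outside the 17, called 0 probes. At 6 h A_96_P083829 and A_96_P128967 differed by 0.11 and 0.16 and A_96_P119457 by -1.41.

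The 41 probes lower with CFCF past a difference of 2 stood for 32 sequence names, and 19 of them matched 13 genes. Their median level was 7.98 with CFCF, against 10.2 with flg22 and 7.28 in the control. On slide 1, where each treatment had 1 array, their median difference was -2.42, the sign there being fixed by the choice of probes. The CFCF replicates of these probes lay a median of 0.28 apart and the flg22 replicates 1.01, against 0.13 for CFCF and 0.25 for flg22 over all probes. None of the 6 probes higher with CFCF matched a gene. Their median level was 9.17 with CFCF, against 6.58 with flg22 and 6.55 in the control, and 5 of the 6 had groups that did not overlap. Just inside the threshold stood a probe of LOC101261650 at -2.02 and just outside it one of the acidic endochitinase CHI3 at -2.00. A total of 4884 probes matched 2232 genes, and the named genes below come from these. No gene that could be named passed the adjusted p. CEVI57 had a limma adjusted p of 0.676 and every other gene named below 0.998, so the following values describe these arrays.

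Among genes with a symbol other than a LOC number, the largest differences were those of mcpi and TD2, genes induced by wounding. Of the LOC genes, singled out after their values were seen, LOC101258176 differed by -2.70 and LOC104646135 by -2.57. The metallocarboxypeptidase inhibitor mcpi read 6.20 and 6.41 with CFCF, against 10.29 and 9.57 with flg22 and 6.28 and 6.29 in the control. The CFCF arrays lay at the level of the control, and its signal was well above background on 1 of the 2 CFCF arrays. The log2 difference was -3.63 (SE 0.86). The threonine deaminase gene TD2 read 7.33 and 7.74 with CFCF, against 11.21 and 8.96 with flg22 and 6.91 and 6.28 in the control, a difference of -2.55 (SE 1.19). The flg22 replicates of TD2 lay far apart, yet both were above both CFCF arrays, and this held for all 7 probes of the gene, with differences between -2.90 and -1.17. Without flg22 replicate 1 the difference was -1.43. CEVI57, a type 2 proteinase inhibitor, read 7.24 and 7.32 with CFCF, against 9.27 and 10.01 with flg22 and 6.65 on both control arrays, a difference of -2.36 (SE 0.38). LAPA1, a wound-inducible leucine aminopeptidase, read 8.30 and 9.10 with CFCF, against 11.80 and 10.17 with flg22 and 7.89 and 6.94 in the control. Its difference of -2.28 (SE 1.02) belonged to 1 probe, and the other 3 probes ranged up to -0.05. It was -1.47 without flg22 replicate 1. LAPA2, the neutral relative of LAPA1, read 13.49 and 13.69 with CFCF, against 13.67 and 13.30 with flg22, and these overlapped. Whether a probe reads both relatives was not tested. The cathepsin D inhibitor cathDInh read 6.02 and 5.98 with CFCF, against 7.55 and 8.26 with flg22. Its signal was not well above background on either CFCF array. By this probe the estimate was 3.75-fold lower with CFCF, which is not a lower bound. The log2 difference of this probe was -1.91, or -1.08 with the green to red ratio, and the second probe of the gene differed by -0.29.

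Of the 11 genes in the list of wound and proteinase inhibitor genes, 9 were lower and 2 higher with CFCF. Arrays did not overlap for 8, all lower (72.7%, against 18.3% of named genes). Of these, 2 passed an unadjusted p of 0.05 in limma (mcpi and CEVI57), against 4.03% of named genes lower at that level. The adjusted p was passed by 0. The median difference of the list was -0.78. The list holds genes that the study selected in part on these samples, LOC101259357 among them, so it is no independent evidence. NAOD, an N-acetylornithine deacetylase, showed the same arrangement of arrays, with 3 probes between -2.45 and -0.45. The first of these read 8.03 and 7.94 with CFCF, against 10.61 and 10.26 with flg22 and 7.31 and 6.73 in the control. TPP3 read 6.59 and 7.67 with CFCF, against 9.34 and 9.17 with flg22 and 6.42 and 6.44 in the control. The peroxidase gene cevi16, singled out after its values were seen because a probe of it passed the difference of 2, had 3 probes between -2.39 and -1.38 with no overlap.

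**Figure D2:**
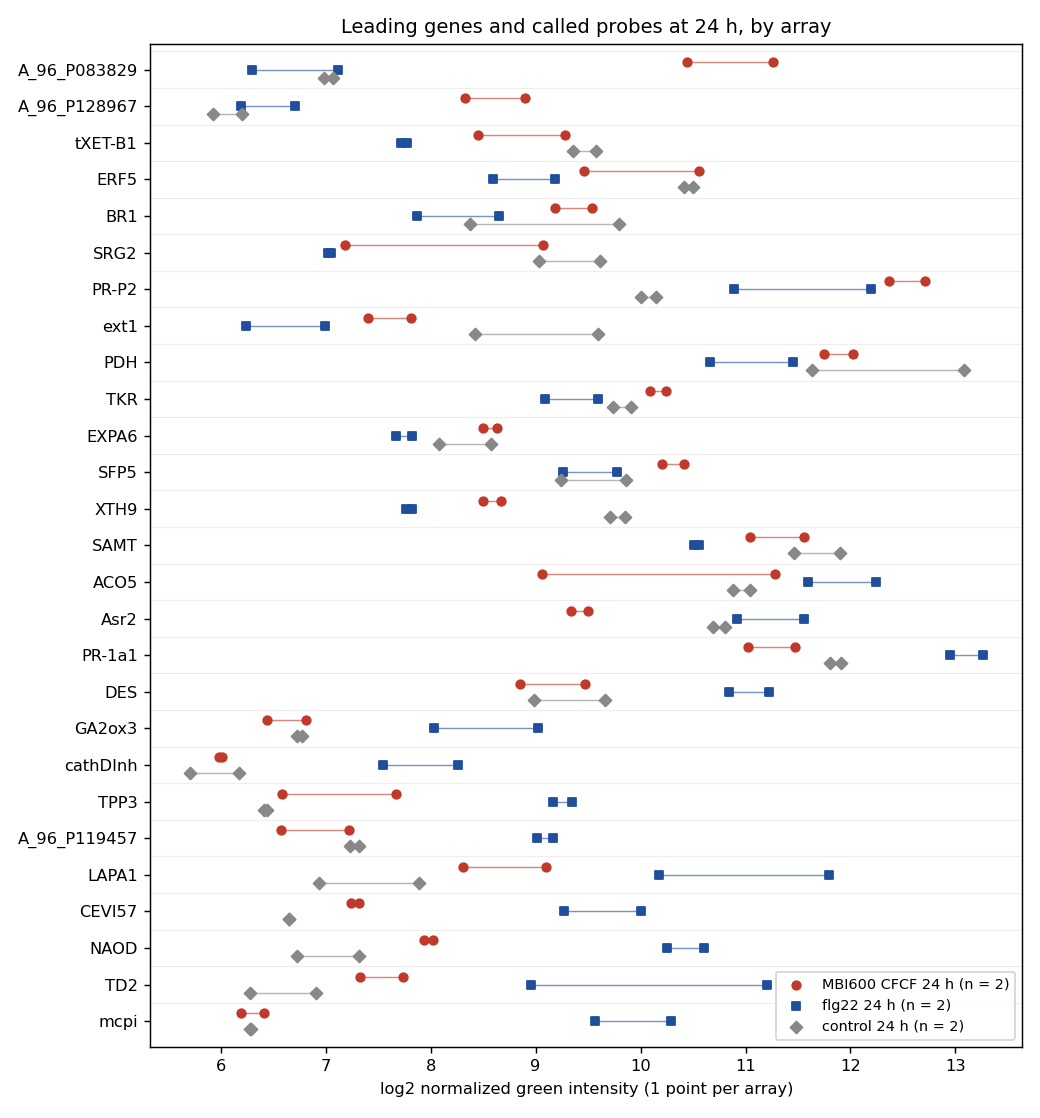
Log2 normalized green intensity (horizontal axis) of the called probes and of the 12 named genes with the largest difference in each direction at 24 h, with 1 point per array and a line joining the 2 arrays of a group. For mcpi, TD2, CEVI57 and NAOD the CFCF arrays lie below the flg22 arrays. Those of mcpi lie at the level of the control, and those of TD2, CEVI57 and NAOD lie above both control arrays. For A_96_P083829 the CFCF arrays stand alone at 11.26 and 10.44.

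Jasmonate is made from fatty acids through lipoxygenase, allene oxide synthase and cyclase, and reductases of oxophytodienoate. The lipoxygenase loxD, which acts at the start of this route, read 9.92 and 9.89 with CFCF, against 11.10 and 10.86 with flg22 and 9.81 and 9.80 in the control. The difference was -1.08 (SE 0.40), and of its 5 probes 3 were lower without overlap and the others lay near 0. The gene opr2, of the oxophytodienoate reductase family, read 9.75 and 10.28 with CFCF, against 11.29 and 10.90 with flg22, and its 6 probes were all lower, between -1.26 and -0.45. MYC2, the transcription factor at the centre of jasmonate responses, read 9.93 and 9.86 with CFCF, against 10.33 and 10.29 with flg22, a small difference of -0.41 (SE 0.15) with closely matched replicates. DES, a divinyl ether synthase that draws on the products of another lipoxygenase branch, read 8.85 and 9.47 with CFCF, against 10.84 and 11.23 with flg22 and 9.67 and 8.99 in the control, and its 3 probes lay between -1.87 and -1.39. Of the 24 jasmonate genes, 19 were lower and 5 higher with CFCF. Without overlap, 12 were lower (50%) and 1 higher (4.17%), against 18.3% and 11.9% of named genes. At an unadjusted p under 0.05 in limma there were 4, all lower, against 4.03% of named genes lower at that level. The jasmonate receptor gene COI1 read 10.52 and 10.55 with CFCF, against 10.42 and 10.55 with flg22. The median of the list was -0.19.

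The PR proteins ran in both directions. PR-1a1, a member of the PR-1 family, read 11.02 and 11.47 with CFCF, against 12.94 and 13.26 with flg22 and 11.91 and 11.81 in the control. CFCF lay below the control and flg22 above it, the difference was -1.86 (SE 0.38), and its 3 probes ranged between -1.86 and -1.46. CHI3, an acidic endochitinase, read 11.29 and 10.81 with CFCF, against 12.28 and 12.91 with flg22 and 10.08 and 10.48 in the control, and its 4 probes lay between -2.00 and -1.54. The basic chitinase CHI9 differed by -0.94. On the other side, PR-P2 of the PR-4 family read 12.71 and 12.37 with CFCF, against 10.89 and 12.20 with flg22 and 10.15 and 10.01 in the control, a difference of 0.99 (SE 0.35) that was 0.34 without flg22 replicate 1. PR1b1, another PR-1 gene, read 14.81 and 13.65 with CFCF, against 11.91 and 13.78 with flg22 and 10.05 and 9.41 in the control. On this probe both treatments stood above the control and overlapped with each other, with a difference of 1.39 (95% interval -0.54 to 3.32). That difference was 0.46 without flg22 replicate 1 and 0.81 without CFCF replicate 1. All 6 probes of the gene had a positive difference. On A_96_P137432 and A_96_P087629, however, flg22 replicate 1 (10.44 and 9.50) lay below both control arrays. P69B, a subtilase induced by pathogens, read 10.68 and 11.29 with CFCF, against 8.17 and 11.29 with flg22. The difference was 1.25, and -0.30 without flg22 replicate 1. The second probe of P69B differed by 0.13 with overlap. Of the 14 PR genes, 9 were lower and 5 higher, with a median of -0.15. At an unadjusted p under 0.05 in limma 3 were lower and 1 higher, against 4.03% and 1.12% of named genes. Of the 13 subtilases and defence proteases, 4 were lower and 9 higher, and 0 passed an unadjusted p of 0.05 in limma.

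**Figure D3:**
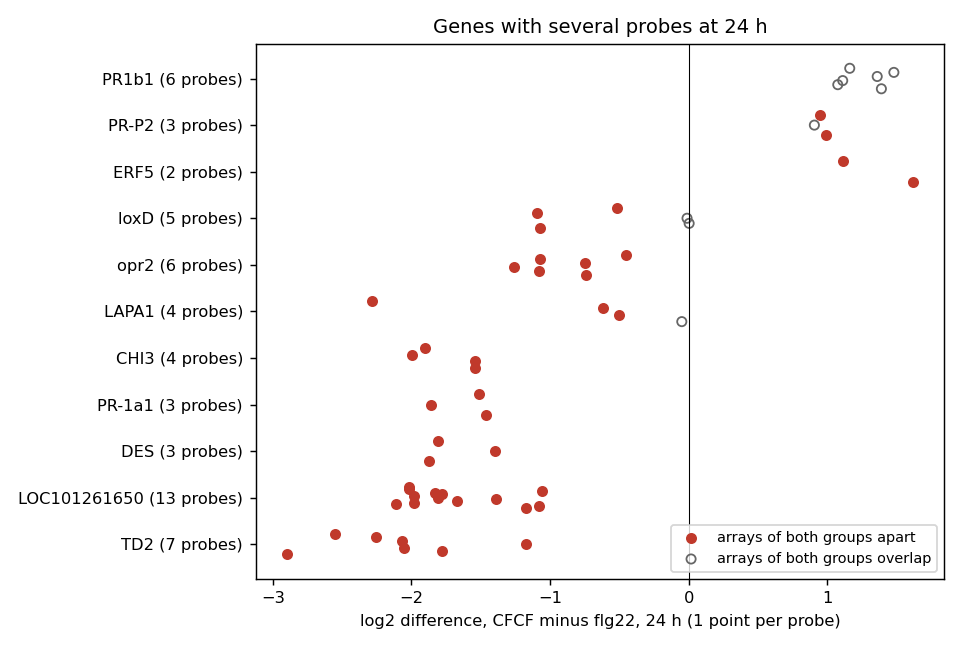
Log2 difference between MBI600 CFCF and flg22 at 24 h (horizontal axis) for each probe of 11 genes, with filled points where the arrays of both groups lay apart and open points where they overlapped. The 7 probes of TD2 and the 13 of LOC101261650 are all negative and filled, while the 6 probes of PR1b1 are all positive and open.

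Ethylene is made by ACC synthases and ACC oxidases, and ethylene response factors (ERFs) carry its signal to target genes. ACO5, an ACC oxidase, read 9.06 and 11.28 with CFCF, against 11.59 and 12.24 with flg22 and 10.89 and 11.04 in the control. Its CFCF replicates lay on either side of the control, so the difference of -1.75 (SE 0.80) rests largely on CFCF replicate 1 and was -0.63 without it. ACO1, another ACC oxidase, read 9.22 and 9.77 with CFCF, against 8.92 and 11.00 with flg22 and 7.70 and 7.63 in the control, and both treatments overlapped above the control. Of the 18 genes of ethylene synthesis, 13 were lower and 5 higher, and the median was -0.11. Without overlap, 7 were lower (38.9%) and 1 higher (5.56%), against 18.3% and 11.9% of named genes. Among the ERFs, PTI5 read 6.63 and 6.90 with CFCF, against 7.75 and 8.44 with flg22 and 6.30 and 6.22 in the control. LOC606712, which carries the synonyms TERF1 and SlERF-C1, read 8.71 and 9.09 with CFCF, against 9.65 and 10.70 with flg22 and 9.57 and 9.39 in the control. ERF5 ran the other way, with 10.56 and 9.46 with CFCF, against 8.59 and 9.19 with flg22 and 10.50 and 10.41 in the control, so that flg22 lay below both other means. The differences were -1.33 (SE 0.42), -1.28 (SE 0.33) and 1.12 (SE 0.42) in this order. The second probe of ERF5 differed by 1.62, and the first by 0.57 without CFCF replicate 1. Of the 42 genes of ethylene perception and response, 26 were lower and 16 higher, and the median was -0.06.

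Genes of phenylpropanoids and amines were mostly lower with CFCF by small amounts. The aromatic amino acid decarboxylase AADC2 read 10.13 and 10.53 with CFCF, against 11.69 and 11.50 with flg22 and 10.55 and 9.78 in the control, a difference of -1.27 (SE 0.48). The 4-coumarate:CoA ligase gene 4CL, at the entry to lignin and phenolic synthesis, read 11.10 and 11.53 with CFCF, against 12.27 and 12.39 with flg22 and 11.09 and 11.16 in the control. Its difference was -1.01 (SE 0.41), and all 4 probes were lower, 2 of them without overlap. Of the 25 genes of the list, 20 were lower and 5 higher, and the median was -0.34. Without overlap, 11 were lower (44%) and 1 higher (4%), against 18.3% and 11.9% of named genes. At an unadjusted p under 0.05 in limma there were 3, all lower, against 4.03% of named genes lower at that level. Redox and detoxification genes had 22 of 32 lower and 10 higher, with a median of -0.19. Of these, 5 were lower and 0 higher at an unadjusted p under 0.05 in limma, against 4.03% and 1.12% of named genes. LOC101253377, listed under the synonym GPX, read 11.22 and 11.20 with CFCF, against 12.72 and 12.36 with flg22 and 10.93 and 10.30 in the control, and its 3 probes lay between -1.33 and -1.19. Without overlap, 13 redox genes were lower (40.6%) and 5 higher (15.6%), against 18.3% and 11.9% of named genes. Among the lower were the peroxidase TAP2 (-0.97), the cytosolic superoxide dismutase SODCC.1 (-0.75) and the glutathione synthesis gene GSH1 (-0.66). These genes were named outside the naming rules, and no higher member is named.

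Hormone and water-stress genes held a few large differences in lists that were otherwise near 0. GA2ox3, a gibberellin 2-oxidase that inactivates gibberellin, read 6.44 and 6.81 with CFCF, against 9.03 and 8.04 with flg22 and 6.73 and 6.77 in the control, a difference of -1.90 (SE 0.53). The median of its list of 20 genes was 0.02. Asr2, of the abscisic acid, stress and ripening family, read 9.34 and 9.50 with CFCF, against 10.92 and 11.56 with flg22 and 10.80 and 10.69 in the control, so CFCF lay below both other groups. The late embryogenesis-like gene LE25 read 6.92 and 6.85 with CFCF, against 7.42 and 8.66 with flg22, a difference of -1.16 (SE 0.44). Of the 18 genes of abscisic acid and water stress, 12 were lower and 6 higher, with a median of -0.10.

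The 12 symbol-named genes without overlap that had the largest positive differences included ERF5, PR-P2 and 5 genes of the cell wall. The xyloglucan endotransglucosylase tXET-B1 read 9.28 and 8.45 with CFCF, against 7.72 and 7.77 with flg22 and 9.58 and 9.36 in the control, a difference of 1.12 (SE 0.25). XTH9, of the same family, read 8.50 and 8.67 with CFCF, against 7.76 and 7.82 with flg22 and 9.71 and 9.85 in the control, although its second probe differed by -0.05. EXPA6, an expansin that loosens walls, read 8.50 and 8.63 with CFCF, against 7.82 and 7.67 with flg22 and 8.57 and 8.08 in the control, and its other probes differed by 0.25 and 0.14. On the probes read out here for tXET-B1, XTH9 and EXPA6, both flg22 arrays were below every CFCF and control array. BR1, a brassinosteroid-regulated member of the xyloglucan family, differed by 1.10 (SE 0.51) and the extensin ext1 by 0.99 (SE 0.68). The second probe of BR1 (0.55) and the other probes of ext1 (0.24 and 0.04) had groups that overlapped. Over the 49 cell wall genes, 27 were higher and 22 lower, and the median was 0.02. Without overlap, 10 were higher (20.4%) and 8 lower (16.3%), against 11.9% and 18.3% of named genes. An unadjusted p of 0.05 in limma was passed by 2, both higher, against 1.12% of named genes higher. SRG2 (1.09), PDH (0.83), TKR (0.82), SFP5 (0.79) and the salicylate methyltransferase SAMT (0.76) complete the 12 genes. The second probe of SAMT differed by 0.06 with overlap. SRG2 was 0.15 without CFCF replicate 1, with 9.07 and 7.18 on the CFCF arrays against 7.05 and 7.02 on the flg22 arrays.

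EDS1, which acts upstream of salicylate, read 9.72 and 10.13 with CFCF, against 10.05 and 10.20 with flg22, a difference of -0.21 (95% interval -0.57 to 0.16). NPR1, the salicylate co-activator, differed by -0.05 (95% interval -0.48 to 0.37) and the ascorbate peroxidase APX1 by -0.24 (95% interval -0.89 to 0.40). ERF-A2 and ERF-H1, which both carry the synonym ERF1, differed by 0.26 and -0.11, and the desaturase gene cevi19 by 0.05. The polyphenol oxidase genes LOC101259064 and LOC101259357 differed by -0.94 (SE 0.42) and -0.78 (SE 0.65), both without overlap. The other probes of LOC101259064 differed by -0.66 and 0.04, and LOC101259357 by -0.30 with the slide as a term and -0.20 on slide 1. Of the 41 kinases and pattern recognition genes, 24 were lower and 17 higher, between -0.48 and 0.55, and 0 passed an unadjusted p of 0.05 in limma. Of the 14 WRKY genes, 10 were lower and 4 higher, between -0.47 and 0.32. Without overlap, 4 were lower (28.6%) and 1 higher (7.14%), against 18.3% and 11.9% of named genes. An unadjusted p of 0.05 in limma was passed by 2, both lower, against 4.03% of named genes lower. Auxin genes had a median of 0.07 over 38 genes. The lists of nitrogen and mineral uptake, carbohydrate metabolism, and water channels and heat shock had medians of -0.10, -0.06 and -0.01. The 9 reference genes lay between -0.31 and 0.22. Of the 17 markers and selected genes of the study that matched a probe, 12 were lower and 5 higher with CFCF, and the median was -0.24. An unadjusted p of 0.05 in limma was passed by 3, all lower, against 4.03% of named genes lower. The 17 genes were chosen in part on these samples and are no independent evidence.

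**Figure D4:**
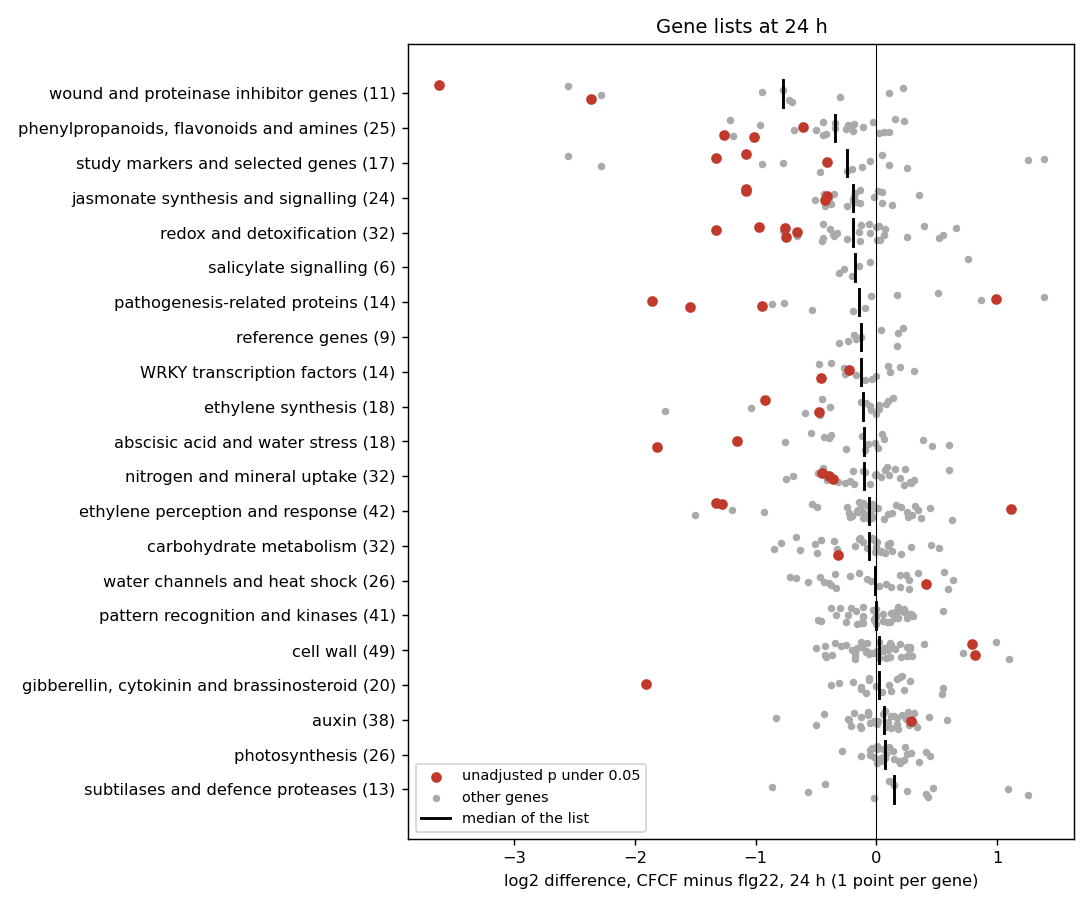
Log2 difference between MBI600 CFCF and flg22 at 24 h (horizontal axis) for the genes of 21 lists (number of genes in parentheses), with 1 point per gene, larger points at an unadjusted p under 0.05 and a bar at the median of each list. The wound and proteinase inhibitor genes have the lowest median, -0.78, and the medians of the other lists lie between -0.34 and 0.14.

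Over all 2232 named genes, 90 (4.03%) were lower and 25 (1.12%) were higher at an unadjusted p under 0.05, and 487 of these genes stood in the lists. Of the 487, 30 were lower and 6 higher at that level, and 0 passed the adjusted p in limma.

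The arrays of 6 h, which were not used to choose the probes past a difference of 2, showed how far the same differences were present earlier. For the gene and list values, the probe of each gene was chosen by mean signal over all 12 arrays, those of 6 h included. Of the 41 probes lower with CFCF at 24 h, 38 were also lower at 6 h, where 46.3% of all probes lay below 0. Of the 41, 25 were lower by 2 or more at 6 h, against 0.289% of all probes, and the median of the 41 was -2.75. These are counts of probes, and the 41 stand for 32 sequence names, with 5 probes of TD2 among them. Called by both thresholds at 6 h were 4 of the 41, against 0.103% of all probes. CEVI57 had the largest early difference, with 6.86 and 7.97 with CFCF at 6 h, against 12.90 and 13.53 with flg22 at 6 h, a difference of -5.80. At 6 h LAPA1 differed by -4.42, cathDInh by -4.20, TD2 by -3.72, NAOD by -2.91 and mcpi by -2.46. The wound list, which holds genes the study selected in part on these samples, had a median of -2.34 at 6 h and -0.78 at 24 h. Other genes had a smaller difference at 6 h than at 24 h, among them DES (-0.04 at 6 h, -1.87 at 24 h), PTI5 (-0.01 and -1.33), CHI3 (-0.51 and -1.54) and Asr2 (-0.58 and -1.82). These 4 were picked after their values were seen, and the change between times had a limma adjusted p of 0.956 for each. LOC101261650, singled out after its values were seen, had 13 probes, which all lay between -2.11 and -1.05 at 24 h without overlap and between -0.95 and -0.01 at 6 h. The 6 probes higher with CFCF at 24 h had a median of 0.13 at 6 h, and 0 of them reached a difference of 2. The change of the difference between the times passed an adjusted p of 0.1 for 0 probes in limma, with 1424 probes (3.27%) at an unadjusted p under 0.05. For A_96_P083829 that change was 4.04 (SE 0.43, limma adjusted p = 0.265) and for CEVI57 it was 3.44 (limma adjusted p = 0.666).

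**Figure D5:**
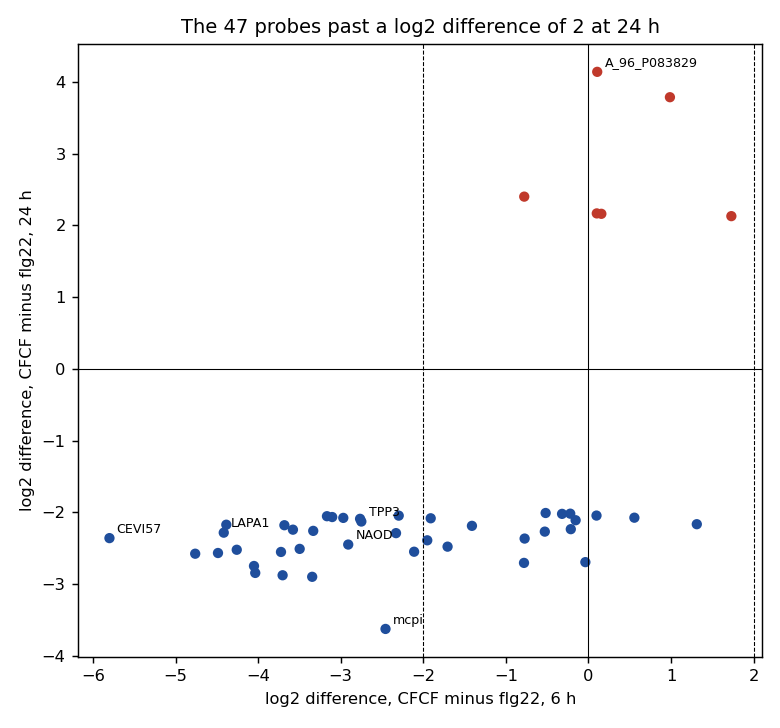
Log2 difference between MBI600 CFCF and flg22 at 24 h (vertical axis) against that at 6 h (horizontal axis) for the 47 probes past a difference of 2 at 24 h, with dashed lines at a difference of 2 in either direction at 6 h. Of the 41 lower probes, 25 lie at -2 or below at 6 h, with CEVI57 at -5.80, whereas the 6 higher probes lie between -0.78 and 1.73 at 6 h.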

How the data were processed

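Total RNA of 12 seedling pools was hybridised to 2-colour Agilent tomato arrays, and the 4 arrays of MBI600 CFCF and flg22 at 24 h were compared. The scans deposited by the authors, made with Agilent Feature Extraction 10.7.3.1, hold spot intensity values without normalization between arrays. The table deposited by the authors is on the log2 scale. It was made from median green intensities, with normexp (offset 50) for the background and the quantile method between arrays, and recomputing it from the scans gave every value to within 5e-09. Quantile normalization gives every array the same distribution, so a shift shared by most probes cannot be seen.

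Control spots were left out, spots marked as outliers were set to missing (5 probe values over 12 arrays, 3 over the 4 arrays), and 43803 spots were averaged to 43603 probes. A mean per group was fitted to all 12 arrays with limma 3.58.1 under R 4.3.3, which the methods also name, with Benjamini-Hochberg adjustment over all probes. The methods join their thresholds by "or", and both were required here. Only 2 arrays per group limit the precision. Group labels came from the sample titles. The steps were tested on simulated data.

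Symbols came from the RefSeq gene table (used for names only), which matched 4884 probes to 2232 of 41476 genes. For the 21 lists, 1 probe per gene was used, that with the highest mean signal, and 45 matches made through a shared alias were removed by name. Genes were named if called, if among the study's markers and selected genes, if among the 12 largest differences in each direction without overlap and with a symbol that is no LOC number, or if a list member reached an unadjusted p of 0.05 and a difference of 1. CHI9, COI1, TAP2, SODCC.1 and GSH1 were named outside these rules. The members, lists and tests were chosen with earlier results of these data known. The study's markers and selected genes were in part chosen on these samples by its authors. The alternatives were other background and scaling choices, the green to red ratio, a filter on dim probes, fewer arrays in the fit, slide or replicate number as a term, another empirical Bayes step, each array left out and other thresholds. The replicate numbers do not pair the samples by any source used here, and the deviations of same-numbered arrays correlated at -0.176. No sequence of a probe was used here.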

Additional observations from a re-analysis of the deposited data

How the results depend on the processing

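With 2 arrays per group, the count of called probes (3) depended on most choices. It was 1 without background subtraction, with the scanner's processed signal, with scaling to the 75th percentile or with an adjusted p under 0.05, and 0 with the green to red ratio, the 4 arrays alone, the 8 treated arrays or the slide as a term. It was 47 with the difference of 2 alone and 40 with an unadjusted p under 0.05. Leaving out each array in turn gave 0 to 6. The replicate block gave 1 in the fit of 12 arrays and 0 with the 4 arrays. The crossed pairing of the 4 arrays, added after seeing the data, also gave 0. A_96_P083829 was higher with CFCF under every alternative (3.63 to 5.36) and lost its call with the ratio, the 4 or 8 arrays, the slide as a term and without CFCF replicate 1. A_96_P128967 (1.40 to 3.74) and A_96_P119457 (-2.91 to -1.80) kept their direction and lost the call in 11 of 17 alternatives each. Those 17 leave out the block and the crossed pairing of the 4 arrays, where every call was lost.

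Counts past the difference of 2 also moved. The 6 higher probes became 3 without background subtraction or with the ratio, 129 with the processed signal, 11 with the slide as a term, 21 within slide 1 and 6 to 18 with an array left out. The 41 lower probes became 65 with an offset of 16, 164 with the processed signal, 22 with the ratio, 85 with the slide as a term and 29 to 100 with an array left out, the highest without flg22 replicate 1. The share of higher probes was 12.8%, 44% with the processed signal, 25.6% within slide 1 and 28.6% without flg22 replicate 2. The median of all probes was shifted by 0.14 with the processed signal and 0.30 with the 75th percentile. The count for the change between times (0) was 1 with the processed signal, 4 with a trended, robust empirical Bayes step and 0 to 4 with an array left out.

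Of the 49 genes and probes named by rule, 43 kept their direction under every alternative. This count was in part fixed by the choice of genes. Where the arrays of the groups did not overlap, leaving out an array or keeping to slide 1 could not reverse the sign. The fits that kept the group means, such as the replicate block, could not change it for any gene. All genes that turned had arrays that overlapped. P69B turned to -0.30 without flg22 replicate 1, LAPA2 to -0.000041 without CFCF replicate 2, -0.081 without flg22 replicate 2 and -0.18 within slide 1, and cevi19 to -0.0086 with the slide as a term, -0.13 without CFCF replicate 2 and -0.18 without flg22 replicate 1. NPR1 turned to 0.12 without flg22 replicate 1, ERF-H1 to 0.20 with the 75th percentile and ACO1 to 0.57 without flg22 replicate 2 and 0.30 within slide 1. The cause was not tested. With an array left out, these 5 ranged from -0.30 to 2.81 (P69B), -0.081 to 0.29 (LAPA2), -0.18 to 0.27 (cevi19), -0.23 to 0.12 (NPR1) and -1.51 to 0.57 (ACO1), the remaining array being taken to vary as other groups do.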
